A study of Mus musculus with 3 samples.

Results

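Mx1, Mx2, Rsad2, Cmpk2, Isg15, Isg20, Bst2 and Rtp4 are mouse genes of the interferon-induced antiviral defence, and they were measured here in RNA attached to chromatin of macrophages. They were taken by gene symbol, not by their values, and all 8 of 8 were found among the 55536 annotated genes. The samples were bone-marrow-derived macrophages, phagocytes grown from C57BL/6J marrow, in 1 condition with 3 libraries. The cells had been given lipid A, the membrane anchor of bacterial lipopolysaccharide and the ligand of Toll-like receptor 4, at 100 ng/ml for 12 h. They were then kept without it for 12 h and met the same dose once more for 90 min. Sequencing was of total RNA from the chromatin fraction after removal of ribosomal RNA. Replicate 1 was made from 1 µg of RNA, replicate 2 from 250 ng and replicate 3 from 500 ng. The labels call the libraries biological replicates and name the same donor for each. They do not say whether the replicates were separate cultures, so the spread between libraries may still be technical. Untreated cells and cells stimulated once were not analysed here, so no value below is a response to lipid A.

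In macrophages, Toll-like receptor 4 signals through the adaptor TRIF to the transcription factor IRF3, which switches on interferon beta. Interferon beta acts back on the cell through its receptor, JAK kinases and transcription factors such as STAT2 and IRF9, which act at interferon-stimulated response elements (ISRE) in promoters. The 8 genes are textbook targets of that pathway and act at different steps of a viral life cycle. Mx1 and Mx2 encode dynamin-like GTPases that block incoming viral ribonucleoproteins, and many laboratory strains, C57BL/6 among them, carry alleles that make no working Mx protein. Rsad2 encodes viperin, a radical SAM enzyme that turns CTP into a chain-terminating nucleotide, and its neighbour Cmpk2 encodes a mitochondrial nucleotide kinase that makes CTP. Isg15 encodes a ubiquitin-like protein that is attached to other proteins, Isg20 an exonuclease that degrades RNA, Bst2 tetherin, a membrane protein that holds budding virions on the cell, and Rtp4 a receptor transporter protein found to restrict flaviviruses in work on bat cells.

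The region upstream of the RefSeq transcription start was read for the genes with an entry in the promoter table used, 5 of 8, on build GRCm38.p6. No window was printed for Mx1, Mx2 and Rtp4. The 250 bases before the start are shown for Rsad2 and Cmpk2, because these neighbours had similar patterns over the libraries, and for Isg15 and Bst2, because both hold overlapping ISRE core matches. Capitals mark matches, on either strand, to the ISRE core, which was searched as GAAA, any 2 bases and GAAA, and each sequence is written 5′ to 3′ on the strand of its gene, ending at the base before the start. The Rsad2 window is chr12:26456453-26456702 (minus strand), the Cmpk2 window chr12:26468965-26469214 (plus strand), the Isg15 window chr4:156200819-156201068 (minus strand) and the Bst2 window chr8:71537473-71537722 (minus strand).
Rsad2: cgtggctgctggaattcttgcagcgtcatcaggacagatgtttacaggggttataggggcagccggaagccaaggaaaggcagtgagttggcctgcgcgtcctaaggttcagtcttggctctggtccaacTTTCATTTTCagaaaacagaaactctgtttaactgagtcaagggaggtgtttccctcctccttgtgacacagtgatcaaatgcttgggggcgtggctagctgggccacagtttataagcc
Cmpk2: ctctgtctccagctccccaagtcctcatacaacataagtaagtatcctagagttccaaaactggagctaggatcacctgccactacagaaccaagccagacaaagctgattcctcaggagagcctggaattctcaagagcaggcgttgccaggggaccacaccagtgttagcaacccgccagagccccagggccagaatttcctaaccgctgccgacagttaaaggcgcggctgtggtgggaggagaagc
Isg15: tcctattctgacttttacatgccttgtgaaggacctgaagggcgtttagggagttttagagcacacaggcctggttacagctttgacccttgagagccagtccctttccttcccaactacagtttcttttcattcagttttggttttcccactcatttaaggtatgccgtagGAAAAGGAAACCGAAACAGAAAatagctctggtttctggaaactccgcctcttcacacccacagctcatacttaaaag
Bst2: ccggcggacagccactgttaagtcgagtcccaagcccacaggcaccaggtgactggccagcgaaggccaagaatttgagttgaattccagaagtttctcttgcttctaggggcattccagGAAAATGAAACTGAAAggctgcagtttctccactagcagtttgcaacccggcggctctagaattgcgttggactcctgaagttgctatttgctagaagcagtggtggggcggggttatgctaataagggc
The Cmpk2 window ends before a RefSeq transcript start at position 26469215, which lies inside the outer bounds of the RefSeq gene (from 26469117) and of the GENCODE gene (from 26469204).

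The Isg15 window held 3 overlapping matches to the ISRE core on the gene's strand, from 78 to 69, from 72 to 63 and from 66 to 57 bases before the start. Bst2 had a pair of overlapping matches, from 130 to 121 and from 124 to 115 bases before the start. Rsad2 had 1 match, on the opposite strand, from 120 to 111 bases before its start. The letters of this core were not in the Cmpk2 window or in any of the 3 windows of Isg20, which says nothing about sites elsewhere. Among 32851 windows of the same length in the table, 2.98% held the ISRE core, beside 3 of the 7 windows of these genes. The GAS core TTCNNNGAA, the pattern bound by STAT dimers, matched once in Bst2, from 136 to 128 bases before the start and overlapping the ISRE core match, and once in the first Isg20 window, from 73 to 65; 7.02% of all windows held it. The kappa B core, searched as GGG, any 2 bases and TTTCC, matched in none of these windows and in 1.41% of all windows. All patterns were searched on both strands. These matches are letters in a window, not measured binding.

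Gene counts summed to 12502177, 21683473 and 16844974 in replicates 1, 2 and 3, and 3 counts, the limit that a count of 0 allows, came to 0.240, 0.138 and 0.178 CPM. All 8 macrophage markers had at least 1 TPM in every library and summed to between 791 and 988 TPM. Marker lists of neutrophils, T cells, B cells and fibroblasts summed to at most 0.45, 2.14, 0.17 and 0.88 TPM in any library of the gene table. In the transcript table made from the reads directly these sums reached 1.13, 23.4, 1.51 and 2.98 TPM, and the T cell sum was mostly Cd3d, with a mean of 16.3 TPM there and 0 in the gene table. Of 6 markers of plasmacytoid dendritic cells, which Bst2 is also used to stain, 2 reached 1 TPM in every library, Ccr9 and the broadly expressed Tcf4. Siglech, a defining marker of those cells, had 0.15, 0.09 and 0.11 TPM, and Klk1 had 0 counts. These low levels depended on the table. In the table made from the reads directly Siglech, Spib, Cox6a2 and Ccr9 had means of 1.28, 1.16, 0.83 and 4.85 TPM. Their means in the gene table were 0.12, 0.03, 0.17 and 1.62 TPM, and Klk1 stayed near 0 in both. In bulk RNA, fewer cells of a type and less RNA per cell cannot be told apart.

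TPM is a length-corrected abundance, here scaled to a fixed total over all features of a library. A count on a short transcript adds more TPM than a count on a long one. Comparisons between genes by TPM therefore rest on how reads were split between annotated transcripts. All 8 antiviral genes had at least 10 TPM in every library, a limit passed by 19.1% of 22015 protein-coding genes. Mx1, Mx2, Rsad2 and Cmpk2 also had at least 100 TPM in every library, a limit passed by 2.07% of protein-coding genes. Among protein-coding genes whose mean was 1 TPM or more, 43.5% passed 10 TPM and 4.71% passed 100 TPM in every library. The median over the 8 genes was 137, 92.2 and 89.4 TPM in replicates 1, 2 and 3, against 9.23, 9.51 and 10.2 TPM over the 9688 protein-coding genes whose mean was 1 TPM or more. Together the 8 genes held 0.785%, 0.334% and 0.275% of the counts in replicates 1, 2 and 3.

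**Figure D1:**
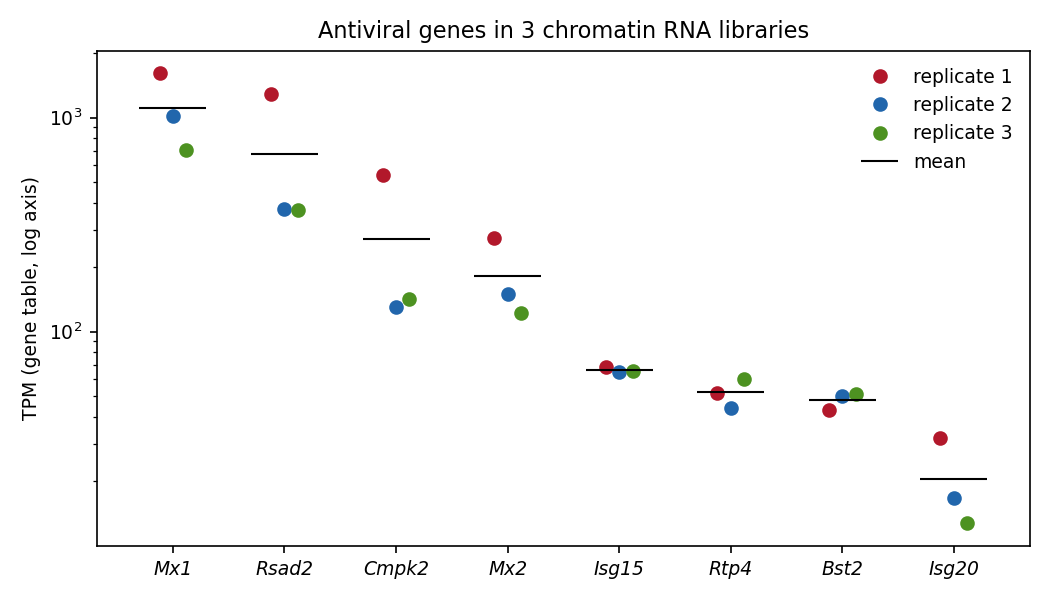
Level of each antiviral gene in the 3 libraries, in TPM on a log axis, with genes ordered by their mean (line). Mx1 and Rsad2 lie highest, replicate 1 stands above the others for Mx1, Rsad2, Cmpk2, Mx2 and Isg20, and the 3 points of Isg15, between 65.0 and 68.1 TPM, nearly coincide.

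Mx1 had the highest TPM of the 8 genes, with 1611, 1019 and 708 TPM in replicates 1, 2 and 3 (1113 ± 459, SD, n = 3). These levels ranked 9th, 9th and 25th among protein-coding genes. The top place depended on the length correction. Mx1-208, a retained-intron transcript of 352 bases, held a mean of 23.3% of Mx1 TPM and 2.08% of Mx1 counts. Effective lengths in replicates 1, 2 and 3 were 1387, 1606 and 1456 bases for Mx1 and 3695, 3551 and 3596 bases for Rsad2. By TMM-scaled CPM, with no length correction, Mx1 had 1852, 1578 and 907 and Rsad2 3954, 1282 and 1165. Rsad2 was thus higher than Mx1 in replicates 1 and 3 on that scale. Mx2 had 274, 151 and 122 TPM (182 ± 80.8). Both genes were highest in replicate 1 and lowest in replicate 3. Mx1 lies at chr16:97447035-97462907 on the minus strand and Mx2 at chr16:97535308-97560900 on the plus strand of mm10, 72400 bases apart. GENCODE calls Mx1 protein-coding and Mx2 a polymorphic pseudogene, while RefSeq lists both as transcribed pseudogenes. Within a library, Mx1 stood at 5.88, 6.76 and 5.80 times the level of Mx2 in replicates 1, 2 and 3. The difference of log2(TPM + 1), Mx1 minus Mx2, was 2.61 ± 0.12 (SD, n = 3). It had the same sign in 3 of 3 libraries, with p = 0.25 by a two-sided exact sign-flip permutation test, the smallest p that 3 libraries allow.

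Viperin RNA was the second most abundant by TPM. Rsad2 had 1291, 375 and 369 TPM in replicates 1, 2 and 3 (678 ± 531, SD, n = 3). Cmpk2 had 537, 131 and 142 TPM (270 ± 231), and its mean in the transcript table made from the reads directly was 496 TPM, 1.84 times as high. The 330-base Cmpk2-203 had 292 TPM there and 21.5 TPM from alignments, while Cmpk2-201 (86.9 and 91.8) and Cmpk2-204 (115 and 155) were lower there. For Rsad2 and Cmpk2 replicates 2 and 3 lay close together and replicate 1 stood far above them, so each mean rests on replicate 1. Without it the means were 372 and 136 TPM. Rsad2, at chr12:26442746-26456452 on the minus strand, and Cmpk2, at chr12:26469204-26479837 on the plus strand, point away from each other across 12751 bases. Cmpk2 minus Rsad2, in log2(TPM + 1), was -1.27, -1.51 and -1.37 in replicates 1, 2 and 3. The mean was -1.38 ± 0.12 (SD, n = 3), with Rsad2 higher in 3 of 3 libraries and p = 0.25 by the same exact permutation test. Rsad2 had 2.41, 2.87 and 2.60 times the level of Cmpk2 while the highest level was 3.50 times the lowest for Rsad2 and 4.11 times for Cmpk2.

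The log2 ratio of 2 genes had a median SD of 0.60 over the 28 pairs of the 8 genes. For Mx1 and Mx2 and for Rsad2 and Cmpk2 it had an SD of 0.12 each. Smaller still was that of Mx2 and Isg20, on different chromosomes, at 0.05. The widest was that of Cmpk2 and Bst2, at 1.27. Over 4752 pairs of neighbouring protein-coding genes that averaged 10 TPM or more the median SD was 0.31, and 11.6% of those pairs lay at or below the value of Rsad2 and Cmpk2. In the table made from the reads directly the SD was larger, at 0.24 for Rsad2 and Cmpk2 and 0.15 for Mx1 and Mx2. Among the 8 genes a small SD was thus found for neighbours and for genes on different chromosomes.

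Isg15, the ubiquitin-like modifier, had 68.1, 65.0 and 65.4 TPM in replicates 1, 2 and 3 (66.1 ± 1.66, SD, n = 3). Its spread of 2.51% of the mean was the smallest of the 8 genes in the gene table. In the transcript table made from the reads directly Isg15 had 94.2, 67.9 and 75.0 TPM, a spread of 17.2%, and Bst2 (3.87%) and Rtp4 (14.2%) spread less. The levels rest on 407, 631 and 498 counts, with exact Poisson 95% intervals of 368 to 449, 583 to 682 and 455 to 544, which cover counting error only. The gene lies at chr4:156199424-156200818 on the minus strand and has 1 annotated transcript. Isg20, the RNA exonuclease, had the lowest level of the 8, with 31.9, 16.6 and 12.8 TPM (20.4 ± 10.1) from 237, 215 and 127 counts. It lies at chr7:78913424-78920396 on the plus strand. Isg20 was highest in replicate 1, at 2.50 times its level in replicate 3, while the highest Isg15 level was 1.05 times the lowest.

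Bst2, tetherin, had 43.2, 50.0 and 51.4 TPM in replicates 1, 2 and 3 (48.2 ± 4.39, SD, n = 3) and lies at chr8:71534255-71537456 on the minus strand. It was the only one of the 8 genes that was lowest in replicate 1. Rtp4 had 51.9, 43.8 and 60.2 TPM (52.0 ± 8.21) and lies at chr16:23520291-23614222 on the plus strand. Its annotated span overlaps Masp1 on the opposite strand by 525 bases and Gm45338 on the same strand by 39791 bases, and both of these genes were listed at 0 TPM in every library.

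By mean TPM the order was Mx1, Rsad2, Cmpk2, Mx2, Isg15, Rtp4, Bst2 and Isg20. Neighbours in this order were compared by their difference of log2(TPM + 1) within a library, and a difference was taken as beyond the spread where it kept its sign in all 3 libraries and its mean exceeded its SD. Cmpk2 and Mx2 did not differ beyond the spread (0.32 ± 0.59, positive in 2 of 3 libraries), nor did Rtp4 and Bst2 (0.10 ± 0.25, positive in 2 of 3). The other 5 neighbouring pairs did, from 0.35 ± 0.22 for Isg15 over Rtp4 to 1.38 ± 0.12 for Rsad2 over Cmpk2. In the table made from the reads directly, Cmpk2 and Mx2 differed beyond the spread by the same rule (0.75 ± 0.67, positive in 3 of 3), and Rtp4 minus Bst2 was -1.34 ± 0.20, with Bst2 higher in 3 of 3. There Bst2 had a mean of 104 TPM, 2.17 times its level in the gene table, and moved ahead of Isg15 with 79.0 and Rtp4 with 41.0 TPM. The rise lay on the 412-base Bst2-202, with a mean of 60.2 TPM there and 5.58 TPM from alignments. Bst2-201 had 44.2 and 42.6 TPM. The first 4 places and the last were the same in both tables.

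Of the 8 genes, 6 had their highest level in replicate 1, as did 37.5% of protein-coding genes whose mean was 1 TPM or more and 48.0% of those whose mean was 10 TPM or more. Isg15 was not highest in replicate 1 once TPM was rescaled to protein-coding genes, which left 5 genes beside 22.0% of all. By TMM-scaled CPM the count was again 6, beside 29.2% of all. On the log2(TPM + 1) scale, replicate 1 minus the mean of replicates 2 and 3 was 1.97 for Cmpk2 and 1.79 for Rsad2. Among protein-coding genes, 0.0723% had a difference at or above that of Cmpk2 and 0.248% one at or above that of Rsad2. It was 1.08 for Isg20, 1.01 for Mx2 and 0.92 for Mx1, reached by 1.92%, 2.48% and 3.48% of genes. Isg15 (0.06), Rtp4 (0.01) and Bst2 (-0.23) lay between the quartiles over all these genes, -0.35 and 0.31, whose median was -0.03. For Isg15 this difference was 0.40 in the table made from the reads directly. With TMM-scaled CPM in place of TPM the differences were 1.80 for Cmpk2, 1.69 for Rsad2, 0.95 for Isg20, 0.72 for Mx2, 0.63 for Mx1, 0.12 for Rtp4, 0.05 for Isg15 and -0.07 for Bst2, beside a median of -0.15. A single library stood on one side, so there was no test.

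**Figure D2:**
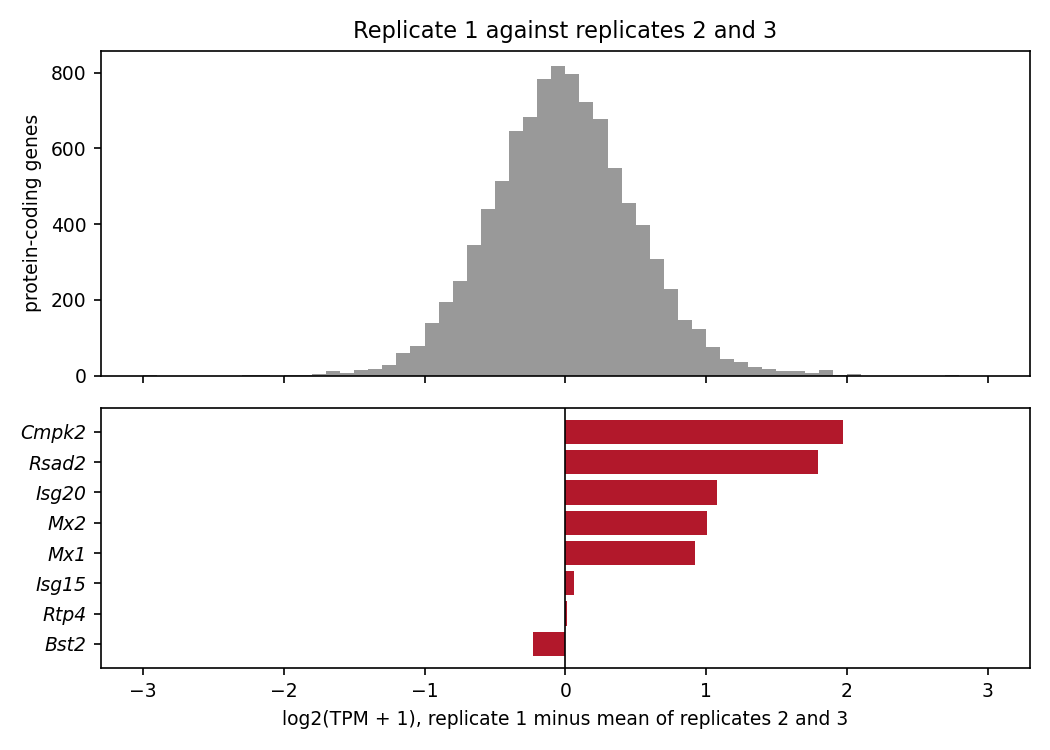
Difference of log2(TPM + 1) between replicate 1 and the mean of replicates 2 and 3, as a histogram of 9688 protein-coding genes (top, the few values beyond the axis drawn at its edge) and as bars for the 8 antiviral genes (bottom). Cmpk2 at 1.97 and Rsad2 at 1.79 lie in the far right tail, and Isg15, Rtp4 and Bst2 lie near 0.

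Replicate 1 also differed from the other libraries in ways that are not about these genes. It had the most starting RNA, the fewest counts and the largest share of TPM on protein-coding genes, 34.1% in replicate 1 against 27.4% in replicate 2 and 29.4% in replicate 3. Features that are no annotated gene took 1.34% of counts in replicate 1, against 0.292% and 0.416% in replicates 2 and 3. The plasmacytoid dendritic cell list summed to 134 TPM in replicate 1, against 76.1 and 81.5 TPM in replicates 2 and 3, nearly all of it Tcf4. The macrophage markers summed to 791 TPM in replicate 1, against 988 and 815 TPM, but in the table made from the reads directly to 1297 TPM, against 1246 and 1200 TPM. The part of these differences in the higher antiviral levels of replicate 1 was not tested.

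The pathway around the antiviral genes was read from lists of its parts, chosen with earlier results of these data known. Over protein-coding genes whose mean was 1 TPM or more, 43.5% passed 10 TPM in every library and 4.71% passed 100 TPM. Of 10 interferon signalling genes, 9 reached 10 TPM in every library and 4 reached 100 TPM. Ifnb1, interferon beta itself, was the exception and the lowest of the list, with 8.28, 4.07 and 3.32 TPM in replicates 1, 2 and 3. Stat2 was the highest, at 499 ± 94.8 TPM (SD, n = 3). Irf7, a transcription factor that amplifies interferon production, had 294 ± 44.2 TPM. In this list 8 of 10 genes were highest in replicate 1 by TPM and 5 of 10 by TMM-scaled CPM. Among protein-coding genes whose mean was 1 TPM or more the shares were 37.5% and 29.2%. At a mean of 10 TPM or more the share by TPM was 48.0%. Replicate 1 minus the mean of replicates 2 and 3 had a median of 0.26 over the list, between the quartiles over all genes, -0.35 and 0.31.

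All 5 genes of ISG15 conjugation and removal reached 10 TPM in every library, and 2 reached 100 TPM, beside the 43.5% and 4.71% given above. Herc6, the ligase that attaches ISG15 in mice, had 390 ± 171 TPM (SD, n = 3), and Uba7, the activating enzyme of ISG15, 342 ± 85.7 TPM. Both lay above Isg15 itself in every library. Ube2l6, the conjugating enzyme between them, was lowest at 18.9 ± 2.77 TPM, but had a mean of 59.7 TPM in the table made from the reads directly. Usp18, the protease that removes ISG15 and dampens the interferon receptor, had 124, 58.5 and 55.9 TPM in replicates 1, 2 and 3 and was, like the Mx genes, highest in replicate 1. Its mean was 79.6 TPM, against 122 TPM in the table made from the reads directly.

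Among 20 other interferon-stimulated genes all 20 reached 10 TPM in every library and 11 reached 100 TPM, beside the same 43.5% and 4.71%. The highest were Oasl2, a relative of the oligoadenylate synthetases, with 933 ± 306 TPM (SD, n = 3), and Parp14, an ADP-ribosyltransferase, with 926 ± 278 TPM. By mean level both lay between Mx1 and Rsad2 in the gene table, where the mean of Rsad2 rests on replicate 1. This order did not hold in each library. In replicate 1 Oasl2 (1273 TPM) and Parp14 (1245 TPM) lay below Rsad2 (1291 TPM). In replicate 3 Oasl2 (848 TPM) and Parp14 (789 TPM) lay above Mx1 (708 TPM). In the table made from the reads directly both lay below Rsad2, with 837 and 725 TPM beside 920 TPM. Ifit1, which binds foreign RNA caps, had 69.9 ± 30.1 TPM, and Ifitm3, a membrane protein that blocks viral fusion, was lowest with 17.5 ± 1.67 TPM. In this list 18 of 20 genes were highest in replicate 1 by TPM and 15 by TMM-scaled CPM. The shares over protein-coding genes whose mean was 1 TPM or more were 37.5% and 29.2%, and 48.0% by TPM at a mean of 10 TPM or more. The median of replicate 1 minus the mean of replicates 2 and 3 was 0.72 over this list, against 0.97 over the 8 antiviral genes.

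**Figure D3:**
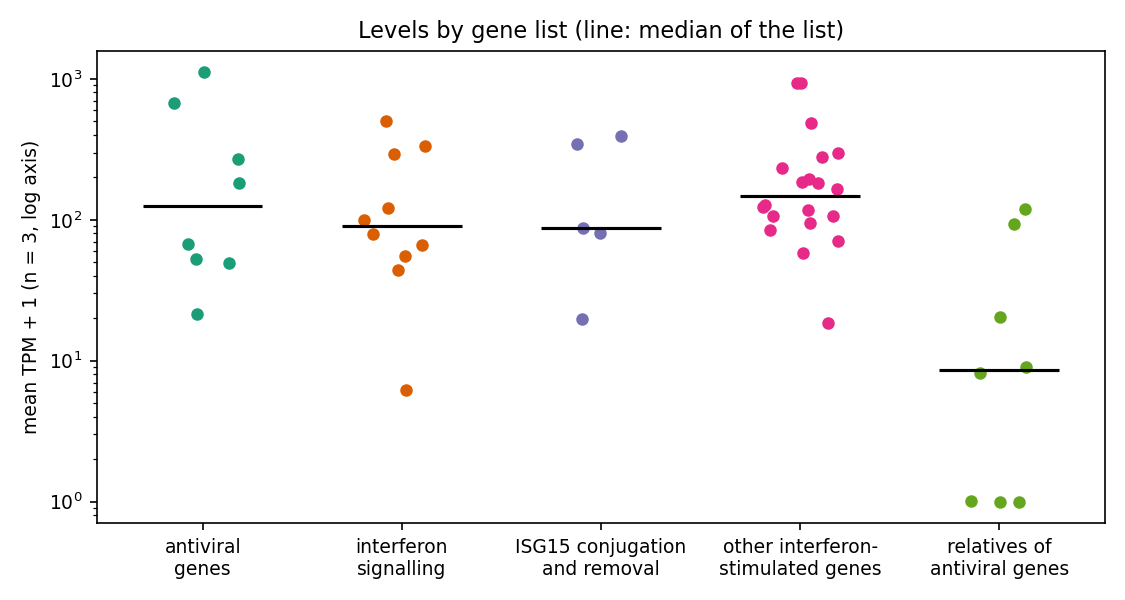
Mean TPM + 1 over the 3 libraries, on a log axis, for the 8 antiviral genes and 4 lists, with 1 point per gene and a line at the list's median. The antiviral genes span from Isg20 at 20.4 to Mx1 at 1113 TPM, Ifnb1 at 5.22 TPM is the lowest of the interferon signalling list, and 3 relatives lie at or near 0.

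Relatives of the antiviral genes were mostly lower. Cmpk1, the cytosolic kinase related to Cmpk2, had 9.90, 6.23 and 5.42 TPM in replicates 1, 2 and 3, and Cmpk2 minus Cmpk1 was 4.76 ± 0.76 on the log2(TPM + 1) scale. That gap depended on the table, since Cmpk1 had a mean of 64.7 TPM in the table made from the reads directly. Rtp1 and Rtp2 had 0 counts in every library and Rtp3 had 1 count in replicate 2 and 0 elsewhere. Rtp4 was the only one of the 4 with at least 1 TPM in the gene table. Isg20l2, a nucleolar relative of Isg20, had 8.25, 7.39 and 8.50 TPM, below Isg20 in 3 of 3 libraries. Aen, another exonuclease of that family, had 21.1, 18.4 and 18.4 TPM and did not differ from Isg20 beyond the spread (Isg20 minus Aen -0.02 ± 0.54). The dynamins Dnm1l and Dnm2, related to the Mx proteins and used in membrane fission, had 119 ± 20.3 and 92.7 ± 11.0 TPM and lay below Mx1 and Mx2 by mean level. Dnm1l was not below Mx2 in every library, with 122.7 TPM beside 122.1 TPM in replicate 3.

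Transcript tables split each gene's RNA over its annotated transcripts, and the shares below are percent of a gene's transcript TPM. Chromatin RNA holds RNA that is still being made, and unspliced precursor and an annotated transcript with a retained intron cannot be told apart in these tables. Over the 4 antiviral genes with a transcript of the retained-intron class (Mx1, Mx2, Cmpk2 and Isg20) the median retained-intron share was 46.2% ± 5.44 (SD, n = 3). The median over 5881 protein-coding genes with such a transcript and at least 1 TPM in every library was 50.8%, 46.4% and 47.0% in replicates 1, 2 and 3. Transcripts annotated as protein-coding held a median of 59.7% ± 6.93 over the 8 genes, beside 50.2%, 54.7% and 54.4% over 9027 protein-coding genes. In the table made from the reads directly the order was turned, with 37.0% over the 8 genes, beside 43.6%, 46.9% and 46.0% over the same 9027 genes.

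Cmpk2 had 70.9%, 54.4% and 54.9% of its TPM on retained-intron transcripts in replicates 1, 2 and 3. Most of it was on Cmpk2-204, with 61.3%, 49.8% and 50.0%. Replicate 1, where Cmpk2 was most abundant, also had the largest retained-intron share, and 8.11% of the genes compared had a difference between replicate 1 and the others at or above that of Cmpk2. Isg20 had 65.0%, 56.9% and 61.1% on its retained-intron transcript, and 39.5% of the genes compared had a difference at or above that of Isg20. Over all 5881 genes the median share was also higher in replicate 1, by a median difference of 4.02 points. In the table made from the reads directly the shares were 85.3%, 73.3% and 74.2% for Cmpk2 and 58.3%, 50.1% and 50.5% for Isg20, again highest in replicate 1. Differences at or above theirs were found there in 8.96% and 17.7% of genes. The transcript that held the Cmpk2 share differed. There Cmpk2-203, of 330 bases, held 62.2%, 50.1% and 51.2% of TPM, and Cmpk2-204 held 23.1%, 23.2% and 23.0%. Cmpk2-203 held a mean of 5.72% of the gene's counts there.

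Rsad2 had 31.1%, 13.4% and 15.6% of its TPM on Rsad2-202, a transcript annotated for nonsense-mediated decay, in replicates 1, 2 and 3. Rsad2-202 holds 435 bases that are intron in Rsad2-201, so unspliced precursor and this transcript cannot be told apart here. The rest was nearly all on the protein-coding Rsad2-201, with 68.7%, 85.8% and 84.4%. The other table gave 37.3%, 27.4% and 26.7% for Rsad2-202, also highest in replicate 1, while it put 36.9% of TPM on the short Rsad2-203, which held 0.32% in the table from alignments. Among genes with a transcript of this class, 3.65% had a difference between replicate 1 and the others at or above that of Rsad2.

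Mx1 had 43.0%, 61.3% and 50.9% of its TPM on transcripts annotated for nonsense-mediated decay, 39.0%, 28.0% and 36.1% on retained-intron transcripts, and 17.7%, 9.94% and 12.6% on protein-coding ones. Its retained-intron transcripts held 4.65%, 2.23% and 3.33% of the gene's counts, with no length correction, and the nonsense-mediated decay class 65.0%, 84.2% and 77.0%. In the table made from the reads directly the nonsense-mediated decay class held 33.8%, 42.2% and 32.8% of Mx1 TPM. Retained-intron transcripts held 39.8%, 38.5% and 44.0% there, the larger share in replicates 1 and 3. Mx2 had 58.1%, 69.5% and 67.5% on transcripts of the polymorphic pseudogene class and a mean of 0.30% on the transcript annotated as protein-coding. In every library the smaller part of the TPM of either Mx gene was on transcripts annotated as protein-coding. Which Mx1 transcript carried the counts was not settled by these files. Mx1-205 held 57.4% of the gene's counts in the table from alignments and 3.53% in the other, and Mx1-201 held 1.16% and 38.4%.

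**Figure D4:**
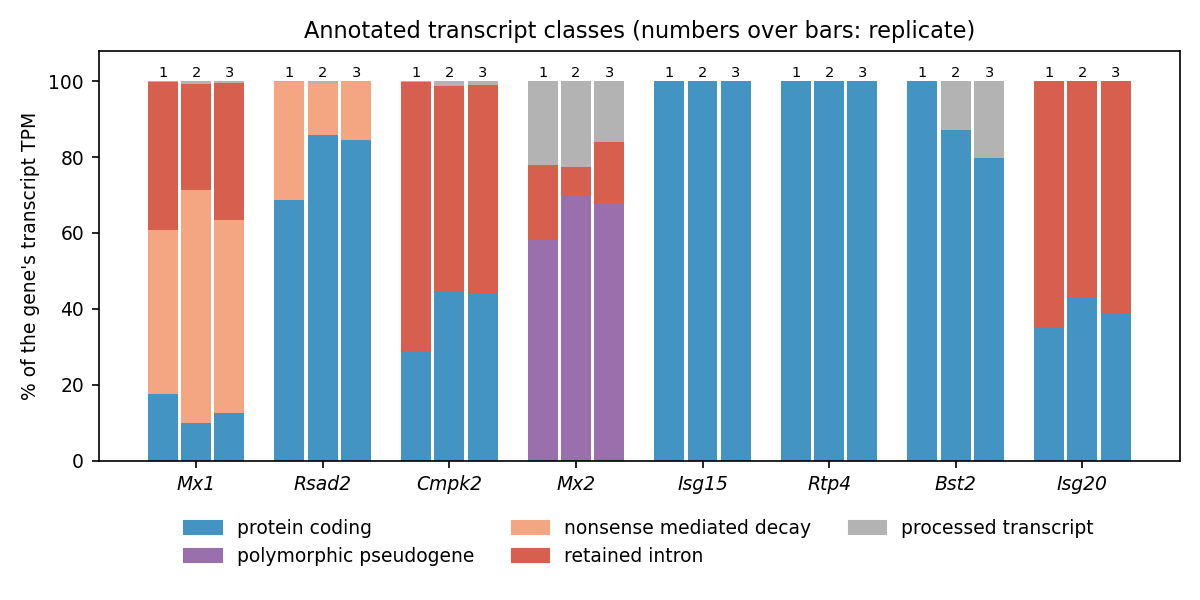
Share of each gene's transcript TPM by annotated transcript class, in percent, in the table from alignments, with 1 bar per replicate and genes ordered by mean level. Retained-intron transcripts hold most of Cmpk2 and Isg20, transcripts of the nonsense-mediated decay class hold 43.0% to 61.3% of Mx1, and Isg15 and Rtp4 consist of protein-coding transcripts.

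All transcripts of Rtp4 are annotated as protein-coding, and Rtp4-203 and Rtp4-201 differ at both ends. Rtp4-203 has 3 exons and ends at position 23613736, while Rtp4-201 has 2 exons and ends at 23614222. Which of these differences moved the split between them was not tested. Rtp4-203, which starts upstream at position 23609057, held 13.5%, 31.5% and 48.6% in replicates 1, 2 and 3. Rtp4-201, which starts at 23609919, held 79.3%, 52.1% and 40.6%. The other table gave Rtp4-203 24.1%, 49.0% and 59.4%, with the same order of libraries. The gene's highest level was 1.37 times its lowest over the same libraries. Bst2 had 0%, 12.8% and 20.1% on Bst2-202, a transcript without an annotated reading frame, but a mean of 57.6% there in the other table, so its split depended on the table.

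**Figure D5:**
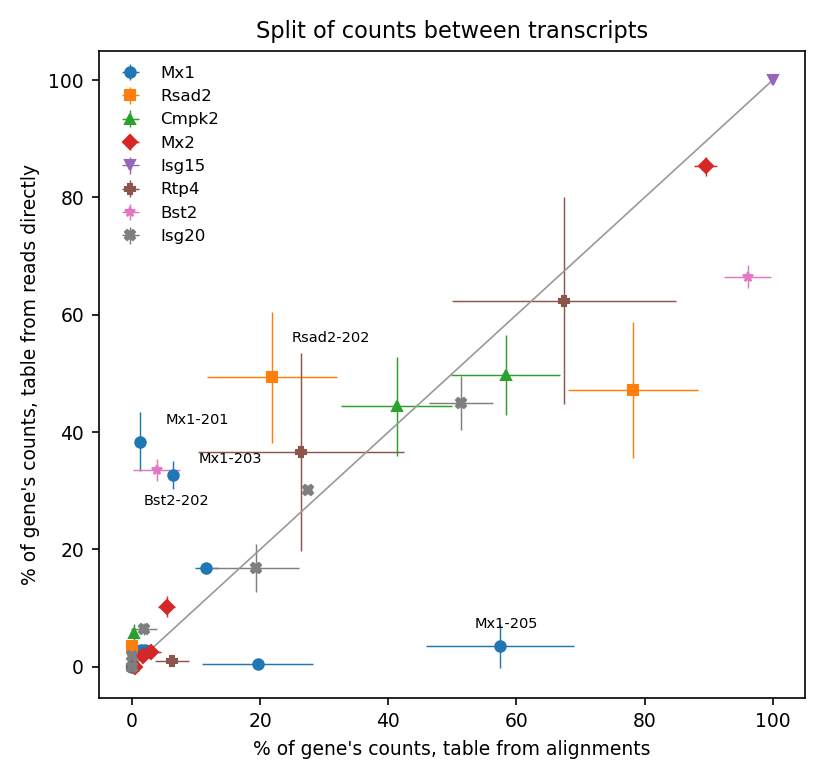
Share of each gene's counts on each annotated transcript, in percent, in the table from alignments (x) and the table made from the reads directly (y), as mean with SD over 3 libraries and 1 symbol per gene. Points on the diagonal have the same share in both, Mx1-205 lies far below it and Mx1-201, Mx1-203, Bst2-202 and Rsad2-202 lie above it.

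The genes whose pattern over the 3 libraries was most like that of Mx1 or Rsad2 were found among 4776 protein-coding genes that averaged 10 TPM or more. The measure was the largest difference over the libraries between centred log2(TPM + 1) values, where smaller is more alike. Nearest to Mx1 were Gm4951 (0.02), Lair1 (0.03) and Thbs1 (0.03); Isg20 ranked 26th, Mx2 30th, Rsad2 1702nd and Cmpk2 2769th. Nearest to Rsad2 were Gpr141 (0.08), Cmpk2 (0.13) and Olfr112 (0.13), and Isg20 ranked 84th, Mx2 113th and Mx1 182nd. In the table made from the reads directly, Thbs1 stayed among the 3 nearest to Mx1 and Gpr141 among the 3 nearest to Rsad2, while Cmpk2 ranked 12th. With 3 libraries these are descriptions of pattern only.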

How the data were processed

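Per the file headers and the listing deposited with each sample, the authors aligned reads to the transcriptome for a gene table and a transcript table, and made another transcript table from the reads directly, all on mm10 with GENCODE M21. The aligner, the quantifiers and any use of strand in counting were not given in the sources used here. Expected counts, as deposited, are estimates and can be fractional. The deposited TPM, a length-corrected abundance, are scaled over every feature, including transfer RNAs and spike-ins, so those features move them. The deposited tables also give effective length in bases.

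Levels were compared on the log2(TPM + 1) scale, within a library, by a two-sided exact test that flips the signs of the 3 differences (a permutation test), which cannot go below p = 0.25. Expected counts were rounded for TMM factors (edgeR 4.0.16) and size factors (DESeq2 1.42.0) in R 4.3.3, and everything else was computed with pandas 2.3.3 under Python 3.11.15. The 26345 table entries that are no annotated gene were left out of library sizes. The comparison functions were tested on simulated data. Named genes were the 8 antiviral genes, the 2 highest and the lowest of each list, Ifnb1, Irf7, Usp18, Ifit1, Oasl2, all relatives and the 3 genes nearest in pattern to Mx1 and Rsad2; marker genes, Masp1 and Gm45338 are given as checks. An item that this rule takes is not reported here. Genes and lists were chosen with earlier results of these data known. Promoter sequences are from RefSeq, GRCm38.p6. Alternatives were the other transcript table, TMM and DESeq2 scaling, TPM rescaled to protein-coding genes, another pseudocount, other filters and each replicate left out. Shares by counts, the SD of the log2 ratio over all pairs, the rescaled count of genes highest in replicate 1, and the order, spread and marker sums in the other transcript table were added after seeing the data.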

Additional observations from a re-analysis of the deposited data

How the results depend on the processing

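No paired analysis was possible because the 3 libraries form 1 group. TPM rescaled to protein-coding genes raised the median level of the 8 antiviral genes, in log2(TPM + 1), to 8.44, against 6.72 as reported, the number of them with at least 100 TPM to 7, against 4, and the number of listed pathway genes and relatives with at least 100 TPM to 34, against 17. The table made from the reads directly gave a median level of 7.25 and a median protein-coding share of 37.0%, against 59.7%, and kept 1 of the 3 genes nearest to Mx1 and 1 of the 3 nearest to Rsad2. Shares of expected counts, with no length correction, gave a median retained-intron share of 27.4%, against 46.2%. The cause of these shifts was not tested. Leaving out each replicate gave median levels of 6.52 to 6.82, Mx1 minus Mx2 of 2.54 to 2.65, Cmpk2 minus Rsad2 of -1.44 to -1.32, retained-intron shares of 43.3% to 48.8%, protein-coding shares of 56.9% to 63.6% and 17 to 19 pathway genes with at least 100 TPM, while 8 and 4 antiviral genes passed 10 and 100 TPM each time. Cmpk2 minus Rsad2 was -1.03 in the table made from the reads directly and -1.76 with TMM-scaled CPM. The share of all protein-coding genes highest in replicate 1 ran from 22.0% with rescaled TPM to 48.0% at a mean of at least 10 TPM. Of the 8 genes, depth limits Isg20 and Bst2 most, with 127 to 237 and 275 to 474 counts.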
